A study of Populus tremula x Populus alba with 64 samples.

Results

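The gene annotated as glutamine synthetase cytosolic isozyme 1-1 (GS1-1, RefSeq transcript XM_006387529.2) was followed through roots and stems of a hybrid poplar whose leaves had been sprayed with auxin modulators. It is 1 of the 37173 genes in the count files, and gene 18109315's single row is 1 of 62007. It was chosen by its place in the study's gene table, which is ranked on the measured difference between AE and control-AE roots at 11 d. Its values in those 2 groups are therefore a description and carry no test, and the tests below rest on the other groups.

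Glutamine synthetase joins ammonium to glutamate and makes glutamine, the first organic form of most nitrogen in a plant. The cytosolic form, called GS1, comes from a small gene family. In roots it assimilates ammonium that enters from the soil, and in vascular tissue it recovers ammonium set free by protein breakdown and by lignin precursor synthesis. Glutamate synthase (GOGAT) then passes the new amino group on to glutamate, and asparagine, other amino acids and storage proteins draw on it.

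All plants were rooted cuttings of 1 clone, Populus tremula x Populus alba INRA 717-1B4, so nothing here varies the genotype. In the AE (auxin enhancer) groups the spray held the auxins NAA at 3 µM and IBA at 4.5 µM. In the AI (auxin inhibitor) groups it held NPA, a blocker of auxin transport, at 100 µM. Both were made up in 1 N KOH, and this solution alone was sprayed on the control-AE and control-AI plants. Roots and stems were taken at 24 h and at 11 d, which gives 16 groups of polyadenylated RNA libraries. Of 64 libraries, the 50 with at least 1000000 counts were used, with totals between 3947526 and 21094004 counts. The other 14 held 93182 to 545250 counts. The labels do not say how plants map to libraries, so the p-values measure the spread between these libraries. The summed level of 4 rows named for green tissue (small subunits of ribulose bisphosphate carboxylase and chlorophyll-binding proteins) was 3.92 to 75.5 CPM (counts per 1000000 of a library size scaled by TMM, the trimmed mean of M-values) in root libraries and 539 to 1603 CPM in stem libraries, so the tissue labels and these markers went together. Reads of the hybrid were aligned to the genome of another species, P. trichocarpa.

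The gene lies on RefSeq sequence NC_037291.1 from 9105250 to 9110505 on the plus strand, with 13 exons of 1469 bases in all over a span of 5256 bases. No other gene overlapped it. The nearest annotated gene before it ended 14559 bases away, and the nearest after it began at a distance of 5006 bases. The build of these coordinates is not given in the files. A second gene carries the same product name, transcript XM_002306349.3 (the second gene) on NC_037289.1 from 6976482 to 6981386, plus strand, again with 13 exons and with 1557 exon bases.

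The inner part of the gene was cut into exons of the same lengths in other genes. Its 11 inner exons, which add up to 905 bases, stood in the same order and with the same lengths in 4 genes, counting GS1-1 itself and the second gene. A search of all rows for a run of at least 4 of these lengths found 8 genes in 9 rows. Only the 2 isozyme 1-1 genes among them have a name in the sources used here, and the other 6 are given no name. XM_024586944.1 and XM_002318269.3 had no exon of 61 bases and shared a run of 10. XM_006372494.2 and XM_002305849.3 had 1 exon of 217 bases in place of those of 88 and 129 bases. Near-identical sequences can share reads, and the sources used here do not say how reads matching several genes were counted, so levels within this set of 8 genes are uncertain to that degree.

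**Figure D1:**
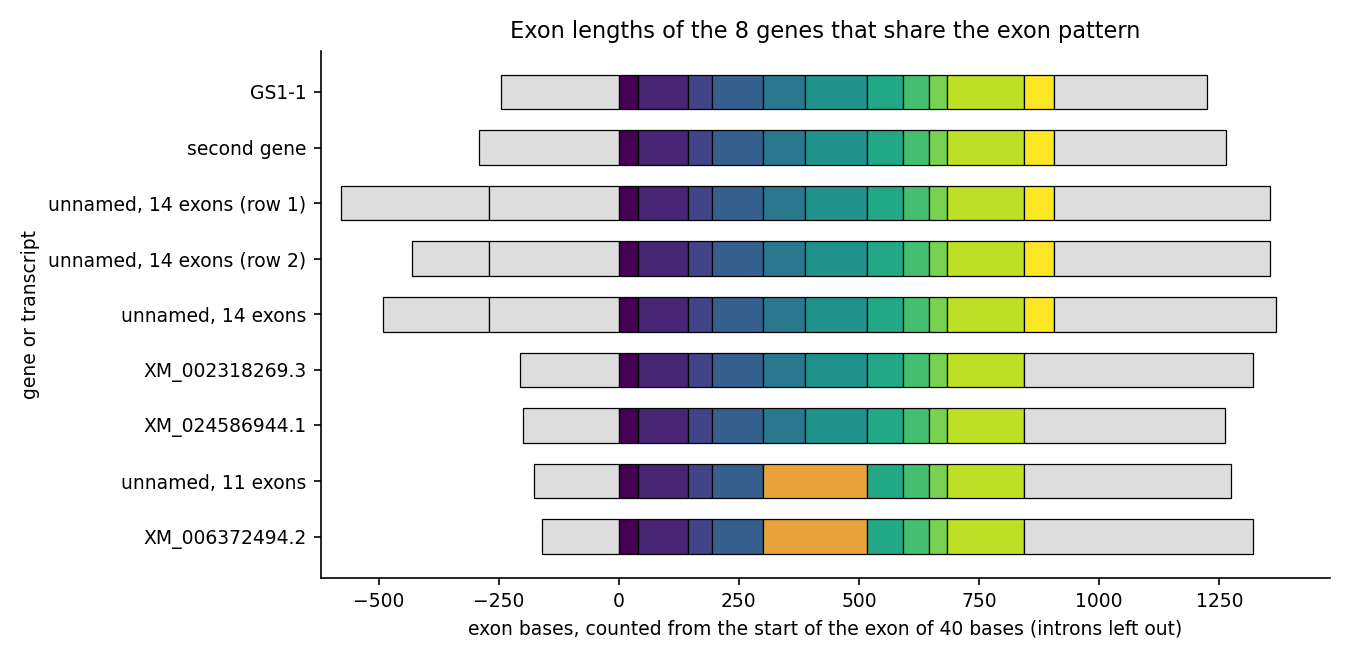
Exon lengths in bases of the 9 rows of 8 genes, drawn from left to right in the direction of transcription and lined up at the exon of 40 bases, with introns left out. Equal colours mark exons of equal length, orange the exon of 217 bases and grey the end exons; the first 5 rows, of 4 genes, share all 11 inner exons.

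GS1-1 was abundant in every library. It had 1569 to 9899 counts per library, so counting error was at most 2.52% of a level. Over the 50 libraries its level ran from 272 to 645 CPM, with a median of 475 CPM. The highest and the lowest group mean differed by 1.03 on the log2 scale.

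The 4 root groups at 24 h had the highest group means. AE roots had 628, 645 and 592 CPM, against 633, 523 and 475 CPM in control-AE roots. AI roots had 493 and 639 CPM, against 560, 540 and 555 CPM in control-AI roots. In both pairs the kept treated and control libraries overlapped. The AI root left out for depth had 287 CPM by raw total, with a 95% Poisson interval of 207 to 386 CPM. It lay below all kept roots at 24 h. The control-AI roots lay close together (SD 10.6 CPM), and the control-AE roots were spread more widely (SD 81.1 CPM).

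In roots at 11 d the AE libraries formed a narrow band. The 6 AE roots had 475 CPM at the lowest, 495 CPM in the median and 511 CPM at the highest, against 410, 431 and 392 CPM in the 3 control-AE roots. AI roots had 469, 488, 435 and 505 CPM, against 558, 502, 540 and 560 CPM in control-AI roots. Among the kept libraries the AE and control-AE roots did not overlap, and the AI and control-AI roots met only between 502 and 505 CPM. The control-AE roots left out for depth had 352 and 491 CPM by raw total, the latter within the AE range. The AI root left out had 215 CPM. The 3 kept control-AE roots were the low group here: they also lay below all 4 control-AI roots, which had received the same KOH spray. By the study's methods the AE and AI treatments were run independently of each other and had separate controls, so the arm and the run cannot be told apart in any comparison across the arms.

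Stem levels were lower and more scattered. At 24 h, AE stems had 510, 378 and 465 CPM, against 314 and 435 CPM in control-AE stems. AI stems had 329 and 322 CPM, against 354 and 309 CPM in control-AI stems. The kept AI stems fell between their 2 kept controls, and the AE stems overlapped theirs. The AI stem left out for depth had 544 CPM by raw total, with a 95% Poisson interval of 441 to 663 CPM. It lay above all kept stems at 24 h, so the place of the AI stems rests on the kept libraries. The control-AE and control-AI stems left out had 427 and 333 CPM.

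At 11 d, AE stems had 290, 429, 302, 503 and 385 CPM, against 450, 463 and 355 CPM in control-AE stems. AI stems had 272 and 336 CPM, against 375, 495 and 388 CPM in control-AI stems. Both AI stems kept lay below all 3 control-AI stems kept, while the AE stems spread on both sides of theirs. The AI stems left out for depth had 270, 326 and 393 CPM by raw total. The control-AI stem left out had 343 CPM, so the separation rests on the kept libraries.

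**Figure D2:**
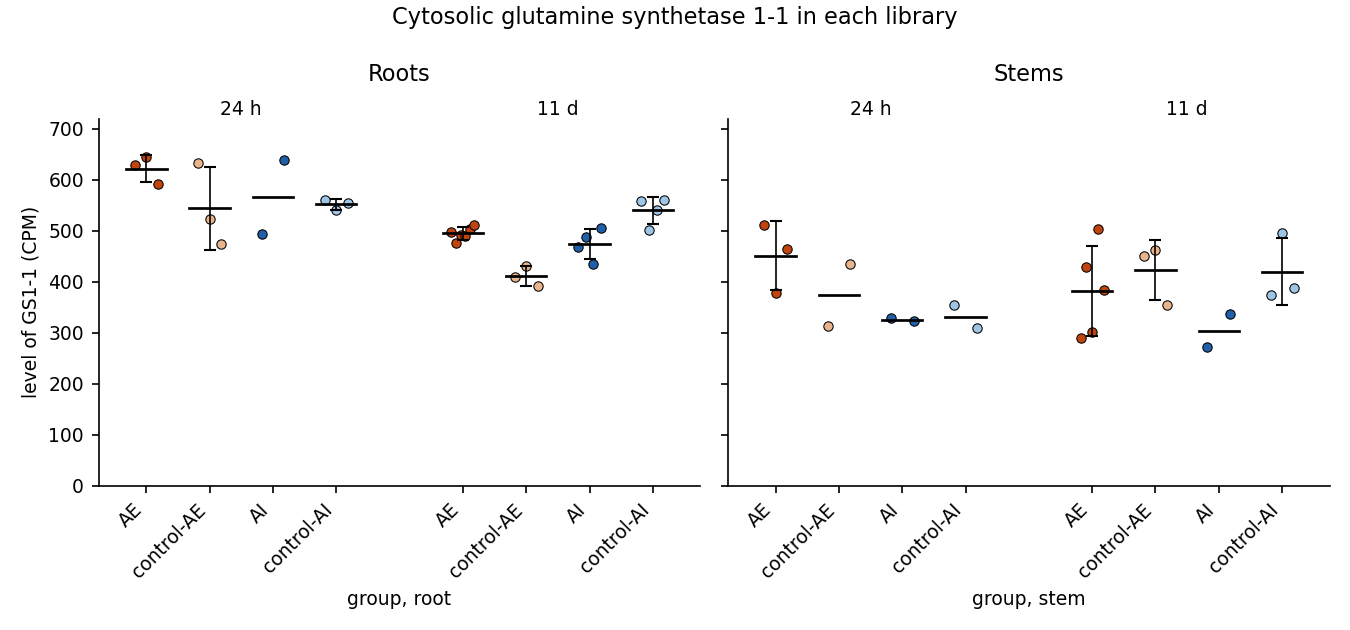
Level of GS1-1 in CPM in each of the 50 libraries, by group, with roots in the left panel, stems in the right one and both times within each. Points are libraries, the long bar is the group mean and the error bar the SD, drawn for groups of 3 or more; root libraries lie between 392 and 645 CPM and stem libraries between 272 and 510 CPM.

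Ordered by their means, the groups ran without a gap. AE roots at 24 h came first with 622 ± 26.9 CPM (SD, n = 3). AI roots (566 CPM, n = 2), control-AI roots (552 ± 10.6 CPM, n = 3) and control-AE roots (544 ± 81.1 CPM, n = 3) at 24 h followed. Then came the 11 d roots of control-AI (540 ± 26.8 CPM, n = 4), AE (495 ± 12.5 CPM, n = 6) and AI plants (474 ± 30 CPM, n = 4). The remaining root group, control-AE at 11 d, stood at 411 ± 19.8 CPM (n = 3), in the midst of the stem groups. The stem means began at 451 ± 67.0 CPM in AE stems at 24 h (n = 3) and ended at 304 CPM in AI stems at 11 d (n = 2). The libraries of each group overlapped those of its neighbours in this order. The gap between neighbouring means was at most 0.904 pooled SD, except between control-AI and AE roots at 11 d, where it was 2.15 pooled SD. These gaps were not tested.

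In most root groups replicates lay close together. The SD of log2 CPM was 0.04 in the 6 AE roots at 11 d, where 1.87% of 642 rows of like level had a lower SD. It was 0.03 in control-AI roots at 24 h (2.65% of rows lower), 0.06 in AE roots at 24 h (4.83%), and 0.07 in both control-AE roots (7.17%) and control-AI roots (8.88%) at 11 d. AI roots at 11 d had an SD of 0.09 (31.8%), and control-AE roots at 24 h stood apart with 0.21 (72.6%). In the 4 stem groups with at least 3 libraries the SD was 0.21 to 0.34, with 40.5% to 76.2% of rows lower. These shares describe the spread and test nothing. The gene came from a ranking on AE against control-AE roots at 11 d, which favours rows with little spread in those groups. Nothing is therefore read from the low shares of those groups.

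Roots held more of this transcript than stems. At 24 h the fitted level over the 4 arms (AE, control-AE, AI, control-AI, weighted equally) was 1.54-fold higher in roots than in stems, a log2 difference of 0.63 ± 0.08 (SE, 20 libraries, adjusted p = 3.90e-06, edgeR quasi-likelihood F test, Benjamini-Hochberg over all rows). In that comparison 68.2% of 26056 rows were called, 33.7% higher in roots and 34.5% lower, with a median over all rows of −0.01. The size of the gene's difference exceeded that of 53.6% of rows, so it sat near the middle. In bulk tissue, fewer cells of a type and less RNA per cell cannot be told apart.

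At 11 d the tissue comparison used the AI and control-AI plants, since the AE arms had chosen the gene. Roots were 1.41-fold higher than stems, a log2 difference of 0.49 ± 0.10 (SE, 13 libraries, adjusted p = 0.000611, edgeR quasi-likelihood F test). Of 26030 rows 55.1% were called, 27.4% higher and 27.7% lower. With the AI and control-AI plants alone at both times, the difference between the tissues at 11 d minus that at 24 h was −0.26 ± 0.14 on the log2 scale (adjusted p = 0.792, edgeR F test), so a change of the tissue difference with time was not shown. A share of 0.00376% of rows was called there.

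Arm by arm, root means exceeded stem means in 7 of 8 pairs, and in 6 pairs the kept libraries did not overlap. Some of these groups held only 2 libraries, and the share of all rows without overlap was not taken. Nothing is therefore read from the count of pairs without overlap. At 24 h the differences were 0.47 (AE), 0.55 (control-AE), 0.79 (AI) and 0.74 (control-AI) on the log2 scale. At 11 d they were 0.65 in AI and 0.37 in control-AI plants. The AE and control-AE plants at 11 d, which are described only, gave 0.41 and −0.03. The control-AE arm at 11 d was thus the one without a root excess, with 411 CPM in roots and 423 CPM in stems.

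No difference between the times passed the test. In roots of the AI and control-AI plants the level at 11 d minus that at 24 h was −0.14 ± 0.07 on the log2 scale (SE, 13 libraries, adjusted p = 0.364, edgeR F test), where 0.207% of 24610 rows were called and 0.0203% called higher at 11 d. In stems over the 4 arms it was 0.05 ± 0.11 (SE, 22 libraries, adjusted p = 0.874, edgeR F test), where 3.58% of 25074 rows were called and 1.58% called higher at 11 d. Kept 11 d roots lay below 24 h roots without overlap in AE plants (−0.33) and control-AE plants (−0.39), which are descriptions. Likewise 11 d stems lay above 24 h stems in control-AI plants (0.33). In the other arms and tissues the libraries of the times overlapped. How many of all rows separate in this way was not taken.

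Under the auxin treatments no tested change of GS1-1 passed. For AE against control-AE the log2 change was 0.18 ± 0.15 in roots at 24 h (6 libraries, adjusted p = 1.00), 0.27 ± 0.20 in stems at 24 h (5 libraries, adjusted p = 0.999) and −0.13 ± 0.20 in stems at 11 d (8 libraries, adjusted p = 1.00), all with SE and from the edgeR F test. The change was positive in both 24 h tissues and negative in the 11 d stems, and none was called. In roots at 11 d, the comparison that chose the gene, the fitted change was 0.26 ± 0.07, or 1.20-fold, over 9 libraries. Of the 25207 rows that passed its filter, edgeR called 0.00397% there, or 1 row. DESeq2, given all 62007 rows, called 43.

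For AI against control-AI the log2 change was 0.03 ± 0.14 in roots at 24 h (5 libraries, adjusted p = 0.970) and −0.18 ± 0.08 in roots at 11 d (8 libraries, adjusted p = 0.985), from the edgeR F test. In stems it was −0.03 ± 0.14 at 24 h (4 libraries, adjusted p = 1.00) and −0.47 ± 0.22 at 11 d (5 libraries, adjusted p = 0.594), from the same edgeR test. The 11 d stems gave the largest change of the 7 tested, at 0.723-fold, and their kept libraries did not overlap. It was not called. With all mapped libraries this change was −0.25 (unadjusted p = 0.224, edgeR F test). In that comparison edgeR called 0.0127% of the 23613 rows that passed its filter, or 3 rows. The number depended on the fit, and DESeq2, given all 62007 rows, called 333. Before adjustment the p-values of the 11 d comparisons were 0.0525 in roots and 0.0682 in stems in the edgeR fit. Other fits fell on both sides of 0.05 before adjustment: in roots p was 0.0492 with edgeR on RLE size factors and 0.0363 with DESeq2, and in stems it was 0.00924 in the joint edgeR fit of the 16 groups and 0.0687 with DESeq2. The joint fit takes its dispersion from all 16 groups, among them the AE and control-AE roots at 11 d that chose the gene. The lowest adjusted p over these fits and the other alternatives with all kept libraries was 0.816 in roots and 0.179 in stems.

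**Figure D3:**
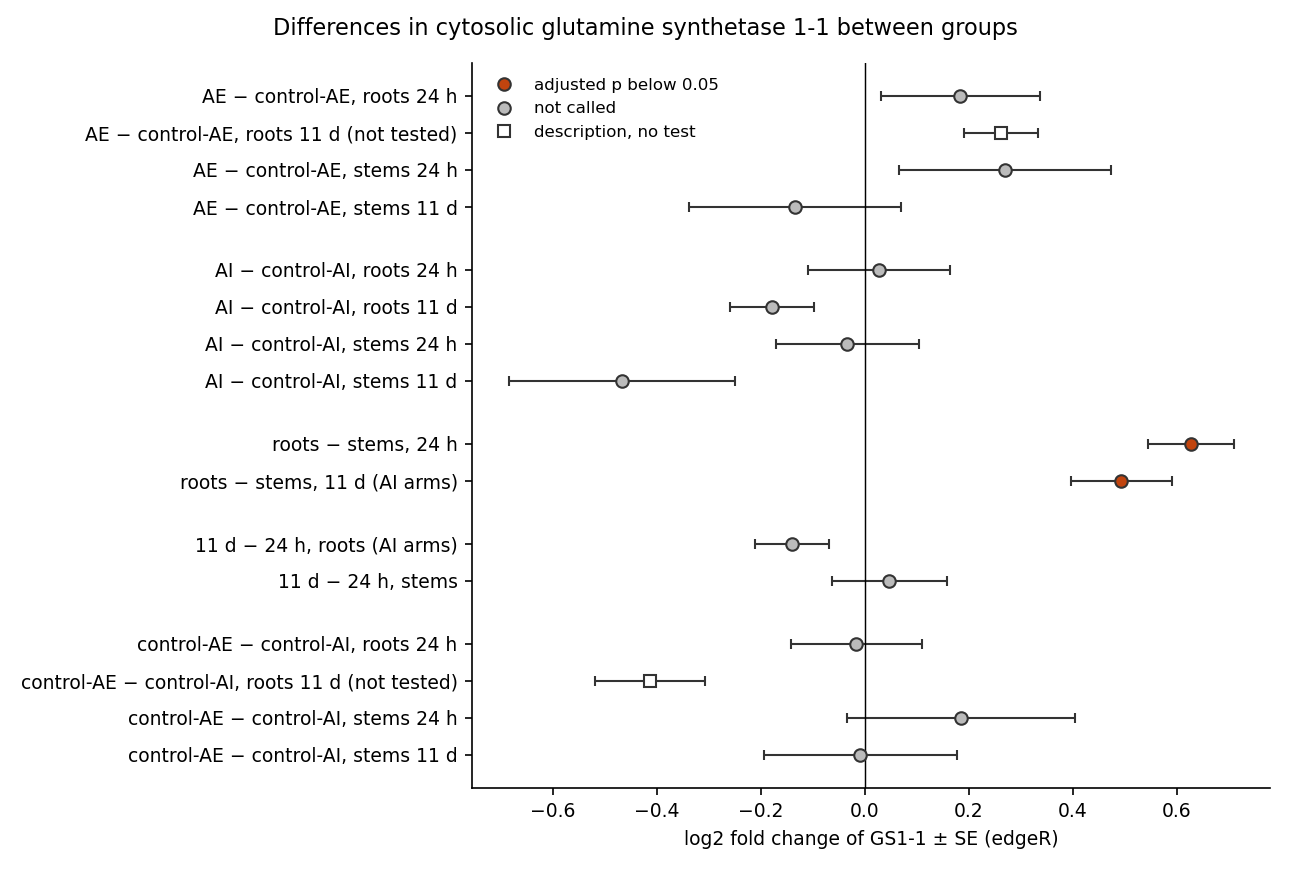
Log2 fold change of GS1-1 with its SE in each comparison, from edgeR fits of the libraries compared. The 2 tissue differences, 0.63 at 24 h and 0.49 at 11 d, are the called ones; the open squares are the comparisons of 11 d roots that involve control-AE and carry no test.

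The controls of the 2 arms had the same labelled spray but belonged to treatments run independently. Control-AE minus control-AI was −0.02 ± 0.13 in roots at 24 h (6 libraries, adjusted p = 0.950), 0.18 ± 0.22 in stems at 24 h (4 libraries, adjusted p = 0.950) and −0.01 ± 0.19 in stems at 11 d (6 libraries, adjusted p = 1.00), from the edgeR F test. In roots at 11 d it was −0.41 ± 0.11 over 7 libraries, as a description. This difference between controls was larger in size than the 0.26 between AE and control-AE roots at the same time. Set against control-AI roots instead, the AE roots at 11 d were lower by 0.12 in the mean of log2 CPM, and the 2 groups overlapped. Across all rows, control-AE and control-AI roots at 24 h differed in 6.56% of 22241 rows (4.02% lower in control-AE roots), and those at 11 d in none (0%) by edgeR. Before adjustment 3677 rows of the 11 d roots had p under 0.05, and 1032 were called when DESeq2 was used.

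The second gene had a larger tissue difference. In roots at 24 h it had 422 CPM at the lowest, 774 CPM in the median and 960 CPM at the highest (11 libraries), against 123, 240 and 482 CPM in stems (9 libraries). Roots were 1.66 ± 0.22 higher on the log2 scale at 24 h (adjusted p = 3.34e-06) and 1.86 ± 0.19 higher at 11 d in the AI arms (adjusted p = 1.71e-06, both SE, edgeR F test). Its root means exceeded its stem means in 8 of 8 arm and time pairs, by 2.02- to 4.44-fold, where GS1-1 ranged from 0.978- to 1.72-fold.

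Within single libraries the balance of the 2 genes turned over between the tissues. The ratio of GS1-1 to the second gene in CPM, which does not depend on library scaling, was above 1 in 2 of 28 kept root libraries and in 21 of 22 kept stem libraries. At 24 h it was 0.617 to 1.20 in roots (median 0.723, n = 11), against 0.902 to 2.54 in stems (median 1.75, n = 9), and the difference was −1.08 on the log2 scale (two-sided exact permutation test over libraries, p = 4.76e-05, adjusted p = 9.52e-05 over 2 tests). At 11 d in the AI and control-AI plants it was 0.465 to 0.742 in roots (median 0.611, n = 8), against 1.22 to 2.14 in stems (median 1.60, n = 5), with an exact permutation p of 0.000777, the smallest this design can give. This ratio was taken up after its values had been seen, and libraries were permuted across the arms. Its p-values therefore only describe how far the tissues were separated. The libraries left out for depth were less separated. Among those stems the second gene had 89 counts against 79 in AE replicate 2 at 11 d. In AI replicate 2 at 24 h it had 125 against 97. Counts were equal, at 31, in control-AI replicate 2 at 24 h, and GS1-1 had more in the other stems left out. Of the roots left out, only control-AE replicate 1 at 11 d had more counts of GS1-1 (51 against 49).

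The 2 kept root libraries with a ratio above 1 were AE replicate 1 (1.20) and control-AE replicate 3 (1.13) at 24 h, and the kept stem library below 1 was control-AE replicate 3 (0.902) at 24 h. The summed green-tissue level in the 2 root libraries was 38.4 and 12.1 CPM, within the root range. In the stem library it was 641 CPM, the lowest of the 9 stem libraries at 24 h, against 1603 CPM in the other control-AE stem. The part of this in the ratios was not tested. The other libraries of these groups had ratios of 0.642 to 0.730 in AE roots, 0.659 to 0.669 in control-AE roots and 2.54 in control-AE stems.

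**Figure D4:**
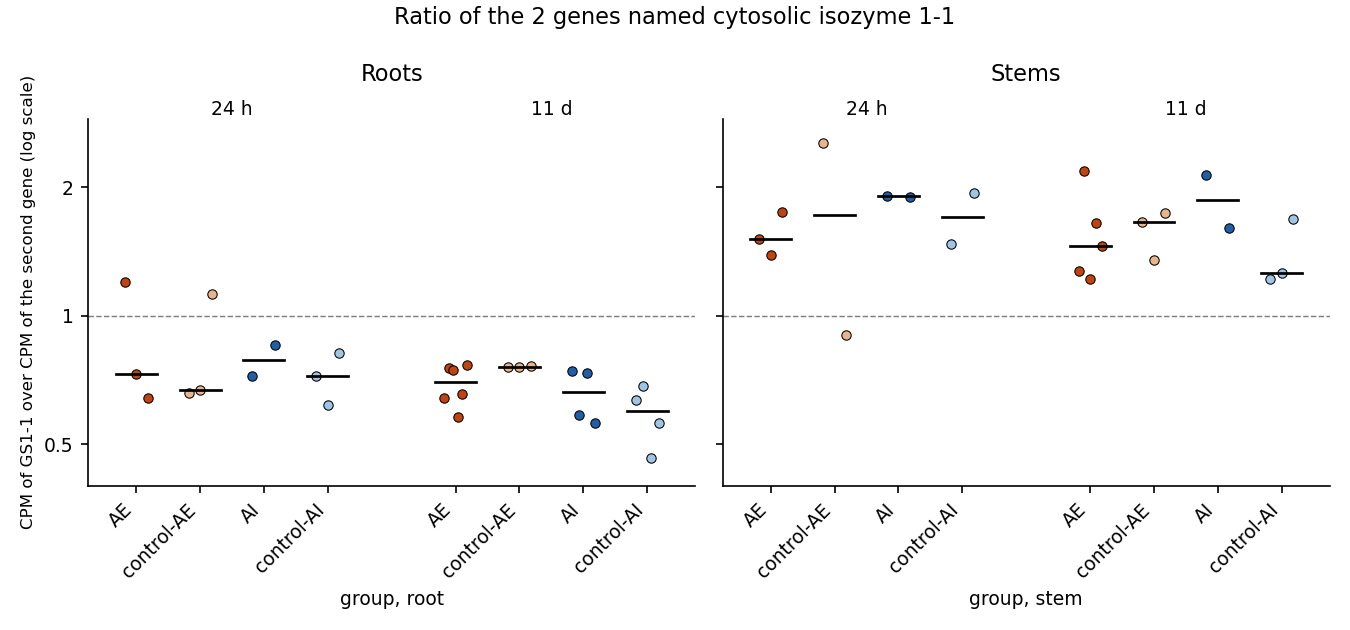
Ratio of the CPM of GS1-1 to that of the second gene in each library, on a log axis, by group, with roots in the left panel and stems in the right one; the bar is the group median and the dashed line a ratio of 1. Of the kept root libraries 2 of 28 lie above the line, of the kept stem libraries 21 of 22.

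Per kilobase of exon, GS1-1 held the third place among the 8 genes in both tissues. In roots the medians were 865 CPM per kilobase for XM_024586944.1, 486 for the second gene, 343 for GS1-1, 254 for XM_006372494.2 and 192 for XM_002318269.3 (28 libraries). In stems they were 693 CPM per kilobase for XM_002318269.3, 614 for XM_024586944.1, 256 for GS1-1, 157 for the second gene and 42.4 for XM_006372494.2 (22 libraries). The unnamed XM_002318269.3 was the one of these 5 that was lower in roots than in stems, with a log2 difference of −1.75 ± 0.11 at 24 h (SE, adjusted p = 3.77e-10, edgeR F test). XM_024586944.1 was higher in roots by 0.64 ± 0.09 (adjusted p = 6.63e-06), close in size to the 0.63 of GS1-1, and XM_006372494.2 by 2.89 ± 0.27 (adjusted p = 5.49e-08), in the same edgeR fit.

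As a share of the summed level per kilobase of the 8 genes, GS1-1 stayed nearly level. Its median share was 14.9% in roots and 13.9% in stems at 24 h, and 15.2% in roots and 13.3% in stems at 11 d. XM_002318269.3 had 8.17% in roots and 35.9% in stems at 24 h. The second gene had 18.9% in roots and 7.40% in stems, and XM_024586944.1 had 34.4% in roots and 31.0% in stems. These shares are descriptions. Neither the 2 isozyme 1-1 genes nor any other row of the 8 genes passed the edgeR test for AE or AI against its control in any tested tissue and time, where the lowest adjusted p was 0.258 (XM_002314389.3, AI in stems at 11 d).

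**Figure D5:**
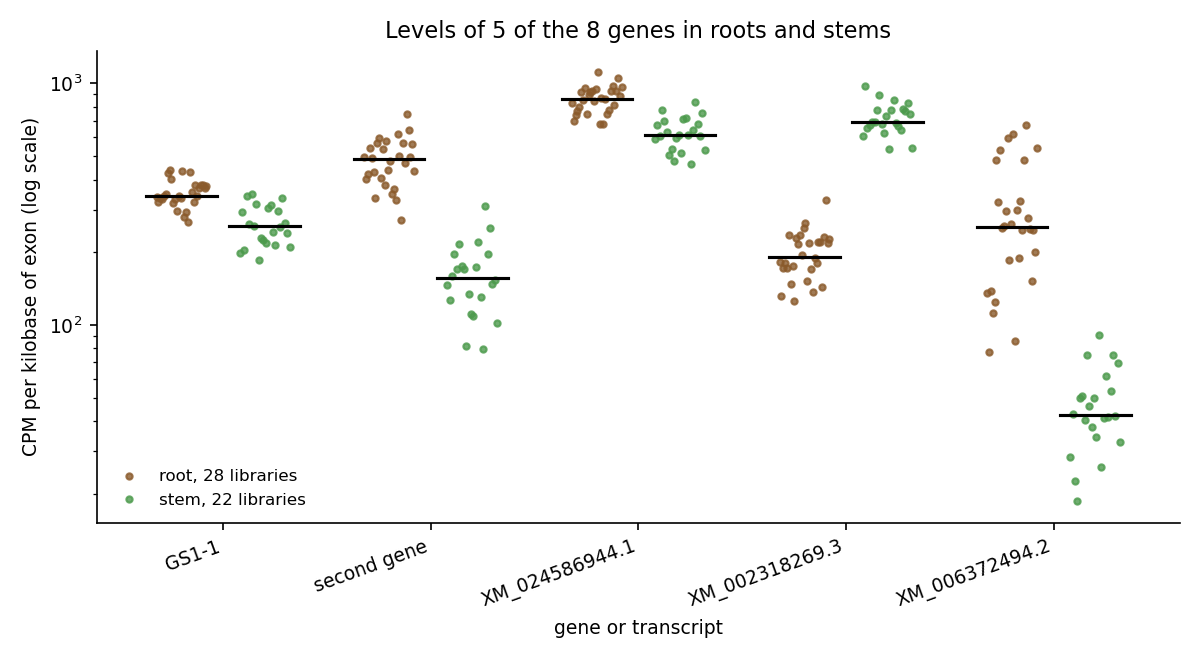
Level per kilobase of exon (CPM per kilobase, log axis) of 5 of the 8 genes in the 28 root libraries (left of each pair) and the 22 stem libraries (right); points are libraries and bars are medians. GS1-1 has medians of 343 in roots and 256 in stems, and XM_002318269.3 alone among the 5 is higher in stems.

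Over the 50 libraries, log2 CPM of GS1-1 had a Pearson r of 0.845 with the second gene, 0.776 with XM_024586944.1 and −0.631 with XM_002318269.3. These points share their tissue contrast. Within roots (28 libraries) r was 0.552 with the second gene, and within stems (22 libraries) 0.755. With XM_002318269.3 it was −0.03 within roots and 0.541 within stems, so the negative value over all libraries was not found within a tissue.

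Across the 16 group means, 114 of 12557 rows with at least 10 CPM had a Pearson r above 0.9 with GS1-1. The 5 rows most like it had r of 0.948 to 0.959, and none of them has a name in the sources used here. The first, gene 7496810, had group means of 83.7 to 155 CPM and an r of 0.816 over the libraries. The fifth, gene 7493601, had group means of 102 to 328 CPM and an r of 0.893 over the libraries. The second gene held place 73 with r = 0.915. The 16 means share their tissues and control arms, and these values are a description.

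Other genes of nitrogen metabolism were taken from product names. The names come from the study's gene table, of which 1998 rows, ranked by the AE comparison in 11 d roots, were used here. The 8 lists made from it hold 26 rows beside GS1-1 and are therefore not a full or an even sample of these pathways. In roots against stems at 24 h, 14 of the 26 were called higher and 9 lower (33.7% and 34.5% of all rows tested), with a median of 0.34 on the log2 scale against −0.01 over all rows. At 11 d in the AI arms 11 were higher and 7 lower (27.4% and 27.7% of all rows), with a median of 0.22 against −0.01.

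Next to glutamine synthetase in the pathway, NADH-dependent glutamate synthase (7453835) was higher in roots at 24 h by 0.67 ± 0.16 on the log2 scale (adjusted p = 0.00159, edgeR). Glutamate dehydrogenase can release or bind ammonium. Both of its listed rows were called higher in roots at both times, against 33.7% of all rows at 24 h and 27.4% at 11 d. Glutamate dehydrogenase 2 (7456680) was higher by 2.95 ± 0.27 at 24 h (adjusted p = 5.11e-08, edgeR), with medians of 42.4 CPM in roots and 5.69 CPM in stems. The listed row of glutamate dehydrogenase 1 (7469881), named transcript variant X7, was higher by 0.46 ± 0.17 (adjusted p = 0.0270, edgeR). Its medians at 24 h were low, 3.78 CPM in roots and 2.74 CPM in stems, and it need not stand for the whole gene. Of 2 rows for amino group transfer, the bifunctional aspartate aminotransferase (7490231) was higher in roots by 1.18 ± 0.19 (adjusted p = 2.82e-05, edgeR), and the other was not called.

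All 3 ammonium transporter rows were called higher in roots at both times (33.7% of all rows at 24 h and 27.4% at 11 d). At 24 h the differences were 1.16 ± 0.31 for ammonium transporter 3 member 2 (18107974), and 1.12 ± 0.41 and 1.11 ± 0.25 for the 2 genes named member 1 (7465913 and 18110376), with adjusted p of 0.00307, 0.0231 and 0.000774 in edgeR. Only 18110376 exceeded 10 CPM, with a median of 13.9 CPM in roots and 7.67 CPM in stems. Among 10 rows named as nitrate reductase or as members of the NRT1/PTR transporter family, 5 were higher and 4 lower in roots at 24 h (33.7% and 34.5% of all rows). The family name does not give what a member carries, so these are not all shown to be nitrate transporters. The largest differences were in members of the NRT1/PTR transporter family, 5.88 ± 0.26 for the FAMILY 1.2-like gene 112324949, 5.72 ± 0.31 for the FAMILY 1.2 gene 18107474 and 4.72 ± 0.43 for the FAMILY 5.2 gene 7459553 (adjusted p = 6.52e-12, 6.30e-11 and 4.69e-08, edgeR). Another FAMILY 1.2 gene was called lower in roots, with a log2 difference of −2.87.

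On the side of nitrogen stores, 4 of 5 bark storage protein rows were called lower in roots at both times. Over all rows 34.5% were called lower at 24 h and 27.7% at 11 d. The fifth bark storage row, named bark storage protein A (18100426), was called higher, by 1.32 ± 0.16 on the log2 scale at 24 h (adjusted p = 2.05e-06, edgeR). Bark storage proteins hold nitrogen in the stems of poplars. Bark storage protein B (18104336) differed by −4.60 ± 0.74 (roots minus stems) at 24 h, and 2 of the genes named bark storage protein A by −4.43 ± 0.79 (18104338) and −4.38 ± 0.64 (7469845), with adjusted p of 3.47e-05, 9.94e-05 and 1.15e-05 in edgeR. Stem libraries differed widely in these rows, with 25 to 282 CPM of 18104336 at 24 h. Of 2 rows for asparagine metabolism, the probable asparaginase (7496928) was lower in roots, with a difference of −0.81 ± 0.23 (adjusted p = 0.00479, edgeR), and asparagine synthetase 2 was not called, with medians of 137 CPM in roots and 138 CPM in stems.

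Between 24 h and 11 d in stems, 1 of 25 list rows tested was called, against 2% of all rows called lower. It was the NRT1/PTR FAMILY 5.4 gene (18097184), with a change of −1.14 ± 0.18 at 11 d (adjusted p = 0.00140, edgeR). In roots of the AI arms edgeR called 0 of 26 and DESeq2 3, and 8 had p under 0.05 before adjustment. Over all rows edgeR called 0.207% there and DESeq2 572 rows, and 3748 of 24610 had p under 0.05 before adjustment in edgeR. For the change of the tissue difference with time, edgeR and DESeq2 called 0 of 26, and 1 had p under 0.05 before adjustment. Over all rows edgeR called 0.00376% there and DESeq2 14 rows, and 1664 of 26590 had p under 0.05 before adjustment in edgeR.

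Over all rows, DESeq2 called 10 for AE in roots and 43 in stems at 24 h. At 11 d it called 43 for AE in roots and 11 in stems. For AI it called 333 in stems at 11 d and 0 in the other comparisons. Between controls it called 2038 and 1032 in roots and 131 and 17 in stems, at 24 h and 11 d. Before adjustment, edgeR gave 343 to 2130 rows p under 0.05 for the tested treatments, and 708 to 5583 between controls. Under the treatments edgeR called none of the list rows. For AE it called 0 of 26 in roots at 24 h (0% of all rows; 3 list rows at an unadjusted p under 0.05, 0 by DESeq2), 0 of 22 in stems at 24 h (0%; 3 and 1) and 0 of 24 in stems at 11 d (0%; 1 and 0). For AI it called 0 of 26 in roots at 24 h (0%; 4 and 0), 0 of 26 in roots at 11 d (0%; 2 and 0), 0 of 23 in stems at 24 h (0%; 0 and 0) and 0 of 23 in stems at 11 d (0.0127%; 7 and 2). For AE in roots at 11 d it called 0 of 26 (0.00397%), against 3 by DESeq2, and 23 had p under 0.05 before adjustment; the list rows had been drawn from the top of that very ranking, so nothing is read from this count. Between the controls edgeR called 0 of 26 in roots at 24 h (6.56%; 5 at an unadjusted p under 0.05, 3 by DESeq2), 0 of 26 in roots at 11 d (0%; 9 and 4), 0 of 23 in stems at 24 h (0%; 3 and 0) and 0 of 24 in stems at 11 d (0%; 1 and 0).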

How the data were processed

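The authors deposited unnormalized read counts, in whole numbers, for every transcript row of each library. The paper's methods give trimming and alignment to Populus trichocarpa v3.1.1, and the submitters' processing notes name FastQC, STAR, Subread and featureCounts. Rows and sequences carry RefSeq names, and the sources used here do not say which annotation build was counted. Coordinates and exons were read from the count files.

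Groups came from the labels. Libraries with at least 1000000 counts were kept (50 of 64). Of these, 1 carried a low-depth label, and 1 of the 14 left out was labelled acceptable. The count of GS1-1 in the 14 shallow libraries was 31 to 147, and in 11 of them its 95% Poisson interval, which covers counting error only, met the range of its group. Comparisons used edgeR 4.0.16 in R 4.3.3 (TMM, filterByExpr at min.count 10 and min.total.count 15, glmQLFit, glmQLFTest), on the libraries compared only, with Benjamini-Hochberg adjustment over all rows at 0.05. SE is the absolute log2 change divided by the square root of F. CPM used TMM-scaled sizes over the 50 libraries, with an offset of 0.5 before logarithms. DESeq2 1.42.0 and the other alternatives are given in the closing section. Names came from 1998 rows of the study's gene table, of which its columns of fold changes and p-values were not used. Named genes are GS1-1, genes annotated as glutamine synthetase, up to 3 called rows a list with the largest tissue difference at 24 h or time difference in stems, and the 5 rows most like the gene. The genes singled out for a shared exon pattern, and the ratio of the 2 isozyme 1-1 genes, were chosen after their values were seen. The gene and the lists were chosen with earlier results of these data known. The edgeR fits were tested on simulated data. Python 3.11.15, pandas 2.3.3, scipy 1.17.1 and matplotlib 3.10.9 made the tables and plots.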

Additional observations from a re-analysis of the deposited data

How the results depend on the processing

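Of 118 alternative values for the 15 tested differences of GS1-1, beside those without 1 library, 111 kept their direction and their side of the threshold, and 7 turned direction without being called on either side. The cause of these was not tested. With all mapped libraries, AI minus control-AI became −0.19 in roots and 0.23 in stems at 24 h, and 11 d minus 24 h in stems became −0.024. Control-AE minus control-AI in stems at 11 d became 0.0016 with DESeq2, 0.0035 with no filter, 0.0068 in a joint fit of the 16 groups and 0.052 with the replicate number as a block. Both tissue differences kept their call under every alternative fitted. In the comparisons of 11 d roots that carry no test, AE minus control-AE was 0.16 with the libraries labelled acceptable and 0.20 with all mapped libraries, and control-AE minus control-AI was −0.31 with the acceptable libraries and −0.33 with the block. Same-numbered libraries did not deviate together throughout. With so few libraries in a group this cannot settle whether the numbers pair the samples. The block changed no call of the gene. It could not be fitted for AI in 11 d stems or controls in 24 h stems, which share fewer than 2 numbers. It moved AE minus control-AE in 11 d stems from −0.13 to −0.44, where only numbers 1 and 4 are shared. Nothing is read from this fit. Without 1 library at a time, the tissue difference was 0.57 to 0.69 at 24 h and 0.43 to 0.57 at 11 d, called each time (adjusted p at most 0.00724 in edgeR). Direction turned, never with a call, for AI minus control-AI at 24 h in roots (−0.16 to 0.18) and stems (−0.11 to 0.0499), for 11 d minus 24 h in stems (−0.0061 to 0.12), and for control-AE minus control-AI in roots at 24 h (−0.15 to 0.063), stems at 24 h (−0.087 to 0.41) and stems at 11 d (−0.073 to 0.14). AI minus control-AI ran from −0.62 to −0.31 in stems and from −0.22 to −0.15 in roots at 11 d. AE minus control-AE ran from 0.09 to 0.31 in roots at 24 h, from −0.27 to −0.05 in stems at 11 d, and in stems at 24 h from 0.04 without control-AE replicate 2 to 0.53 without control-AE replicate 3 (unadjusted p = 0.0462, adjusted p = 0.578, edgeR). The time difference in roots was −0.23 without AI 24 h replicate 2 (unadjusted p = 0.00691, adjusted p = 0.114, edgeR) and −0.04 without AI 24 h replicate 3. The nitrogen-list rows called numbered 3 with DESeq2 and 1 in the joint fit for AE in roots at 11 d, 1 with DESeq2 for AE in stems at 24 h, 3 with the block for AE in stems at 11 d and 2 with DESeq2 for AI in stems at 11 d. Over all rows DESeq2 called 43 for AE in roots at 11 d and 43 for AE in stems at 24 h. It called 333 for AI in stems at 11 d. The joint fit called 6 of 27674 rows higher and 180 lower for AE in roots at 11 d. The block called 510 higher and 341 lower for AE in 11 d stems. For time the list rows called numbered 3 with DESeq2 and 1 with no filter in roots, and 2 in stems both with counts summed per gene and in the joint fit. Over all rows in roots, DESeq2 called 572, and the fit with no filter 30 higher and 130 lower of 39499. In stems the summed counts gave 387 higher and 515 lower of 24015. The joint fit gave 934 higher and 876 lower of 27674 there. Between controls the list rows called numbered 3 with DESeq2, 3 with no filter and 2 with the block in roots at 24 h, and 4 with DESeq2 and 2 in the joint fit in roots at 11 d. Over all rows DESeq2 called 2038 in roots at 24 h and 1032 at 11 d. At 24 h the fit with no filter called 778 higher and 1135 lower of 37480 rows. The block called 295 higher and 551 lower of 23097. The number over all rows in the joint fit of 11 d roots is not given here. Without 1 library they ran from 0 to 5 for AI in stems at 24 h, 0 to 3 for AI in stems at 11 d, 0 to 2 for time in roots, 1 to 2 for time in stems, and 0 to 4 in roots and 0 to 1 in stems between controls at 24 h.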
